A study of Mus musculus with 6 samples.

Results

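The enzymes that break down fatty acids by beta-oxidation in mitochondria and in peroxisomes were followed in inguinal subcutaneous white adipose tissue (SC-WAT) of mice with and without the transcription factor EGR1. The set held 35 genes of 47069 gene identifiers in the count tables, chosen by symbol after the Ensembl identifiers had been matched to GENCODE names on GRCm38. It comprised 19 genes of mitochondrial enzymes, 8 of peroxisomal enzymes and transporters, 5 long-chain acyl-CoA synthetases (Acsl) that activate fatty acids, and 3 genes whose products are found in both organelles. RNA came from 3 Egr1+/+ and 3 Egr1-/- female C57BL/6 mice of 2 weeks, 1 library per mouse, and the question was how the transcriptome of SC-WAT differs without EGR1. The mutant allele carries a LacZ insertion in the 5′ untranslated region of Egr1 and a frameshift upstream of the DNA-binding domain. It is present in every cell of the animal, so the fat pad was not the only tissue without functional EGR1. Both genotypes descended from heterozygous intercrosses, several litters contributed, and 1 Egr1+/+ and 1 Egr1-/- mouse were littermates that the labels do not identify.

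Before oxidation, an acyl-CoA synthetase joins the fatty acid to coenzyme A. Long-chain acyl groups then enter mitochondria through the carnitine shuttle, in which a carnitine palmitoyltransferase of the outer membrane, inhibited by malonyl-CoA, is the regulated step. In the matrix, repeated rounds of dehydrogenation, hydration, a second dehydrogenation and thiolysis release acetyl-CoA, and electrons from the flavin-dependent step reach the respiratory chain through the electron transfer flavoprotein. Peroxisomes shorten very-long-chain and branched fatty acids with separate enzymes after import by ATP-binding cassette transporters of the D family. White adipocytes chiefly store and release fatty acids, whereas brown and beige adipocytes burn them to make heat.

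Each mouse contributed 29661984 to 42357981 counts, of which 50.0 to 66.3% came from the mitochondrial genome, with the highest share in Egr1-/- replicate 1. Levels are therefore given in CPM, in which each count is set against a library size scaled by the TMM method, and levels of different genes are compared only as CPM per kb of merged exons. Counts of Egr1 itself were 353, 241 and 711 in Egr1+/+ replicates 1, 2 and 3, and 103, 84 and 57 in the Egr1-/- replicates. The 8 adipocyte markers were abundant in both genotypes, at summed levels from 9660 to 10421 CPM in Egr1+/+ and from 8200 to 9942 CPM in Egr1-/- mice. Fabp4, Cd36 and Lpl had the highest levels, with means of 3928, 2179 and 2093 CPM in Egr1+/+ mice. At an unadjusted p under 0.05 in edgeR, 1 of the 8 was lower (Adipoq, adiponectin) and 1 higher (Lipe). The shares of all tested genes were 5.6% and 5.06%. Skeletal muscle markers, of tissue that lies beside this fat pad, ranged from 216 to 3521 CPM among the Egr1+/+ mice and from 98.8 to 2686 CPM among the Egr1-/- mice, in the order 1094, 3521 and 216 CPM, then 98.8, 343 and 2686 CPM for replicates 1, 2 and 3. In bulk tissue, fewer cells of a type and less RNA per cell cannot be told apart.

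In edgeR, 16 of the 19 genes of mitochondrial fatty acid oxidation were higher in Egr1-/- SC-WAT at an unadjusted p under 0.05. Of all tested genes, 5.06% were. At an adjusted p under 0.05, 0 of the 19 passed. Among the 19, 18 had a positive log2 fold change of Egr1-/- over Egr1+/+, with a median of 0.51, or 1.42-fold, where the median of all 17667 tested genes was 0.001. The peroxisomal genes went in both directions, 5 of 8 positive and 3 negative, and their median log2 fold change was 0.26. The medians of the compartments differed by 0.25, and by 0.15 to 0.35 with each mouse left out, a description without a test. The acyl-CoA synthetases had a median of 0.05. All 35 genes had enough counts to be tested.

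By the quasi-likelihood test of edgeR, 0 of the 35 reached a Benjamini-Hochberg adjusted p under 0.05, which 3 of the 17667 tested genes (0.017%) did, and limma-voom also gave 0. Adjusted p-values ran from 0.22 for Cpt1b to 0.965 for Acaa1b. At an unadjusted p under 0.05, 21 of the 35 genes were higher in Egr1-/- SC-WAT, against 5.06% of all tested genes. In the other direction 1 gene was lower, against 5.6% of all. In 15 of the 35 every Egr1-/- mouse was above every Egr1+/+ mouse, against 8.15% of all tested genes, and in 2 every Egr1-/- mouse was below, against 8.1% of all. The mitochondrial genes held 16 of the 21 and 12 of the 15, and the peroxisomal genes 3 of the 21, 1 of the 15 and all that were lower. These were 84.2% and 63.2% of the 19 mitochondrial genes. They were 37.5% and 12.5% of the 8 peroxisomal genes, against 5.06% and 8.15% of all tested genes. DESeq2, the tool of the study, gave an adjusted p under 0.05 to 8 of the 35, all higher, against 0.928% of the 13899 genes to which it gave an adjusted p. These were Cpt1b, Slc25a20, Acadvl, Acadm, Hadhb, Etfa, Etfdh and Crat. The number of 21 rested on single mice: it was 9 without Egr1-/- replicate 3 and 12 without Egr1+/+ replicate 3, and 2 when libraries were scaled by total counts alone, which moved the median log2 fold change of all genes to -0.147.

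**Figure D1:**
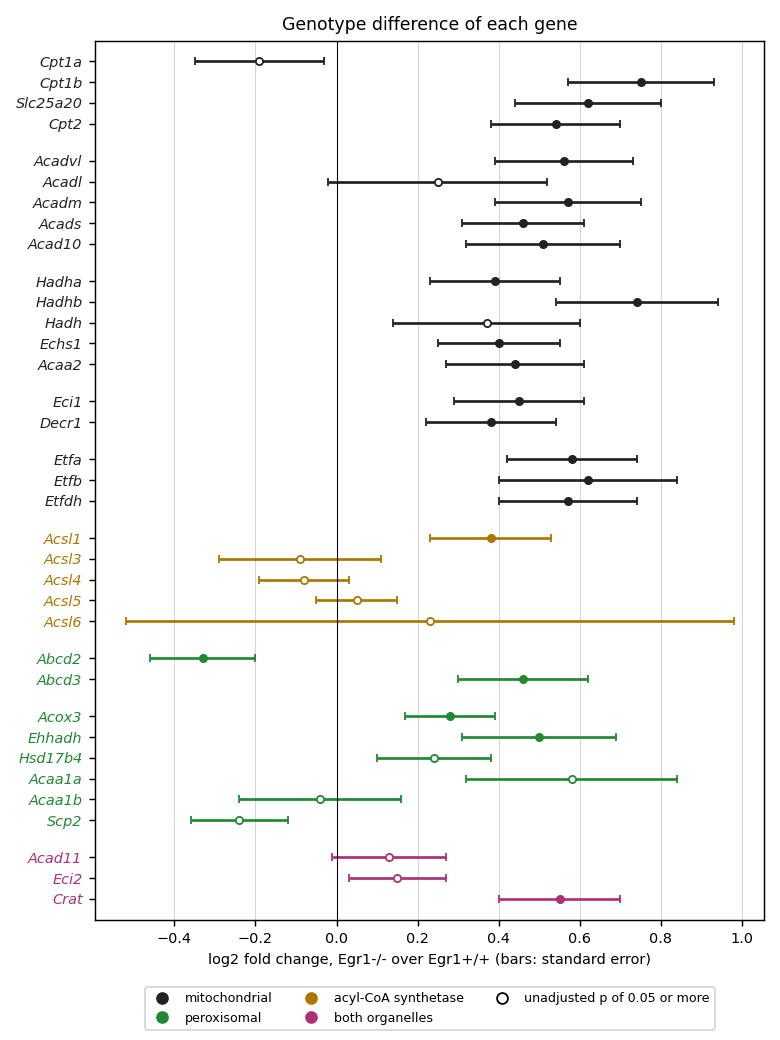
Log2 fold change of each gene (x axis, Egr1-/- over Egr1+/+, n = 3 mice each) with its standard error as a bar, genes grouped by step of the pathway (y axis, colour for compartment); filled points have an unadjusted edgeR p under 0.05 and open points do not. The mitochondrial genes lie between 0.25 and 0.75 apart from Cpt1a at -0.19, and the peroxisomal genes spread from -0.33 for Abcd2 to 0.58 for Acaa1a.

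In the carnitine shuttle, the forms of carnitine palmitoyltransferase 1 had log2 fold changes of opposite sign, and only the muscle and brown fat form, Cpt1b, had an unadjusted p under 0.05. Cpt1b (chr15:89416405-89425863, minus strand) had 4.1, 5.99 and 4.45 CPM in Egr1+/+ replicates 1, 2 and 3 and 7.77, 8.13 and 8.5 CPM in Egr1-/- replicates 1, 2 and 3. The lowest Egr1-/- mouse was thus above the highest Egr1+/+ mouse, and the log2 fold change was 0.75 (standard error, SE, 0.18, adjusted p = 0.22 with edgeR). Cpt1a (chr19:3322334-3385733, plus strand), the form that liver and white adipocytes use, had 20.4, 25.4 and 30 CPM in Egr1+/+ and 25.3, 20.7 and 20.3 CPM in Egr1-/- mice. The genotypes overlapped, and the log2 fold change of -0.19 (SE 0.16) was the only negative one among the mitochondrial genes. Per kb of exon Cpt1a was still the more abundant form in Egr1-/- mice, at 2.89 against 2.41 CPM per kb, where Egr1+/+ mice had 3.31 against 1.44. The ratio of Cpt1b to Cpt1a CPM was 0.201, 0.236 and 0.148 in Egr1+/+ mice and reached 0.307, 0.393 and 0.419 in Egr1-/- mice. Every Egr1-/- mouse had the higher ratio (log2 difference 0.95, exact two-sided permutation test, p = 0.1, which is the smallest that 3 against 3 allows, and 0.15 after adjustment over the 3 ratios compared). Cpt1b rested on 141 to 263 counts per mouse. In the GENCODE M21 annotation, 81.4% of its exon bases also belong to the overlapping gene Gm44502 on the same strand. Gm44502 was not among the genes of the deposited counts, and how reads from the shared bases were counted was not tested.

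The other parts of the shuttle were higher in Egr1-/- SC-WAT as well. Slc25a20, the carnitine-acylcarnitine translocase of the inner membrane, had 100, 85.2 and 101 CPM in Egr1+/+ and 149, 110 and 182 CPM in Egr1-/- mice. Its log2 fold change was 0.62 (SE 0.18, adjusted p = 0.274 with edgeR). Cpt2, which returns the acyl group to coenzyme A on the matrix side, had 46, 42.4 and 36 CPM in Egr1+/+ and 63.2, 48.2 and 70.1 CPM in Egr1-/- mice. Its log2 fold change was 0.54 (SE 0.16). Both genes were separated by genotype, with Egr1-/- replicate 2 nearest to the Egr1+/+ mice. Crat, the carnitine acetyltransferase that handles short acyl groups in mitochondria and peroxisomes, had 120, 132 and 105 CPM against 186, 145 and 192 CPM. It too was separated, with a log2 fold change of 0.55 (SE 0.15, adjusted p = 0.239 with edgeR).

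The 5 acyl-CoA dehydrogenases assigned to mitochondria alone, which open each round and differ in the chain length they prefer, had log2 fold changes from 0.25 to 0.57. Acadvl, for very long chains, had 361, 334 and 358 CPM in Egr1+/+ and 465, 435 and 658 CPM in Egr1-/- mice. Acadm, for medium chains, had 594, 529 and 493 CPM against 769, 640 and 991 CPM. Both were separated, the lowest Egr1-/- mouse being replicate 2 and the highest replicate 3, with log2 fold changes of 0.56 and 0.57 (edgeR adjusted p = 0.287 and 0.303). Acads, for short chains, had 25.6, 33.1 and 26.9 CPM in Egr1+/+ and 39.3, 32.9 and 45.8 CPM in Egr1-/- mice. Egr1+/+ replicate 2 and Egr1-/- replicate 2 were almost level, and the log2 fold change was 0.46 (SE 0.15). Acadl, for long chains, overlapped widely, with 690, 303 and 450 CPM in Egr1+/+ and 572, 471 and 671 CPM in Egr1-/- mice. Its log2 fold change of 0.25 had a standard error of 0.27, and with single mice left out it lay between 0.004, without Egr1+/+ replicate 2, and 0.59, without Egr1+/+ replicate 1. Acad10, a scarce member of the family, had a log2 fold change of 0.51 and was separated, although 16.8% of the 51-base stretches of its transcripts also occur in other genes, Acad12 among them. Of the exon bases of Acadvl, 42.9% lie opposite exons of Dvl2 on the other strand.

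The mitochondrial trifunctional protein finishes the round for long chains, and its 2 subunits are encoded by Hadha (chr5:30118304-30155162, minus strand) and Hadhb (chr5:30155248-30184593, plus strand). The genes lie head to head, and the start sites in the RefSeq table are 273 bases apart. Their promoter windows (250 bases before to 50 after the start site, GRCm38.p6, RefSeq) therefore share 228 bases of genome, read in opposite directions, and are shown because the pair is transcribed from neighbouring starts. The Hadha window spans chr5:30154931-30155230 on the minus strand and the Hadhb window chr5:30155003-30155302 on the plus strand, both printed 5′ to 3′. Capitals mark a match to the EGR element GCGTGGGCG, 20 to 28 bases downstream of the Hadhb start site counted as 0.
Hadha: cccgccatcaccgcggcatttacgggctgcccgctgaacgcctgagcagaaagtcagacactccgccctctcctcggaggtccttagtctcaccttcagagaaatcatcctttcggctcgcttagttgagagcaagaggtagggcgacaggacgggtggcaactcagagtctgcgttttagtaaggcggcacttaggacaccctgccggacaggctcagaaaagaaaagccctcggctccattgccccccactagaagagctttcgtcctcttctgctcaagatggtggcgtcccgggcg
Hadhb: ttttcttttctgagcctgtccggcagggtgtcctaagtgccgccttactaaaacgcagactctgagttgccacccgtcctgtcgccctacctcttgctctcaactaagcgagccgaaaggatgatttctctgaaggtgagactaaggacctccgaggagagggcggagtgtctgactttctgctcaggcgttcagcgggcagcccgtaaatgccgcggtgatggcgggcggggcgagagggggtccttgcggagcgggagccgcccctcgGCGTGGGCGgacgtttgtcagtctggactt

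Hadhb, the beta subunit with the thiolase, had 150, 232 and 175 CPM in Egr1+/+ and 298, 257 and 373 CPM in Egr1-/- mice. Every Egr1-/- mouse was above every Egr1+/+ mouse, and the log2 fold change of 0.74 (SE 0.20, adjusted p = 0.236 with edgeR) was close to that of Cpt1b, these being the highest of the 35, although without Egr1-/- replicate 2 Hadhb was at 0.86, Slc25a20 at 0.80 and Etfb at 0.79 against 0.75 for Cpt1b. Hadha, the alpha subunit with the hydratase and dehydrogenase, had 587, 509 and 505 CPM against 647, 599 and 845 CPM. It was separated by a narrow margin, with a log2 fold change of 0.39 (SE 0.16), and the difference between the fold changes of the subunits was not tested. Per kb of exon, Hadha exceeded Hadhb in both genotypes, at 61.1 against 28.1 CPM per kb in Egr1+/+ and 79.9 against 46.9 in Egr1-/- mice. Part of the Hadhb sequence, 19.5% of its 51-base stretches, recurs in other genes, including the pseudogenes Gm13910 and Gm9108, with which it is 99.8% identical over 1428 bases and 97.6% over 1426 bases. Gm13910 stayed at or below 0.175 CPM in each mouse.

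The remaining matrix enzymes had log2 fold changes from 0.37 to 0.45. Acaa2, the medium-chain thiolase, and Echs1, the short-chain enoyl-CoA hydratase, had log2 fold changes of 0.44 and 0.40, both with an unadjusted p under 0.05, and only Acaa2 was separated by genotype. Hadh, which encodes the dehydrogenase for medium and short chains, had 348, 193 and 263 CPM in Egr1+/+ and 352, 265 and 419 CPM in Egr1-/- mice. The genotypes overlapped and the log2 fold change was 0.37 (SE 0.23). The auxiliary enzymes Eci1 and Decr1, which deal with double bonds of unsaturated chains, had log2 fold changes of 0.45 and 0.38, with both unadjusted p-values under 0.05 and overlapping genotypes.

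The 3 genes that pass electrons to the respiratory chain were all separated by genotype. Etfa, the alpha subunit of the electron transfer flavoprotein, had 196, 161 and 159 CPM in Egr1+/+ and 237, 225 and 312 CPM in Egr1-/- mice. Etfdh, its dehydrogenase in the inner membrane, had 309, 283 and 304 CPM against 434, 346 and 547 CPM. The log2 fold changes were 0.58 and 0.57, with edgeR adjusted p-values of 0.249 and 0.286. Etfb, the beta subunit, had only 4.4, 4.63 and 4.69 CPM in Egr1+/+ and 6.6, 5.23 and 9.18 CPM in Egr1-/- mice, which gave a log2 fold change of 0.62 (SE 0.22). The subunits pair in the protein, yet per kb of exon Etfb was at 4.97 CPM and Etfa at 117 CPM over the 6 mice. In the M21 annotation 58.2% of the exon bases of Etfb overlap other genes on the same strand, mainly Gm45233, which had 0 counts in all 6 mice, and how reads of both genes were counted was not tested.

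**Figure D2:**
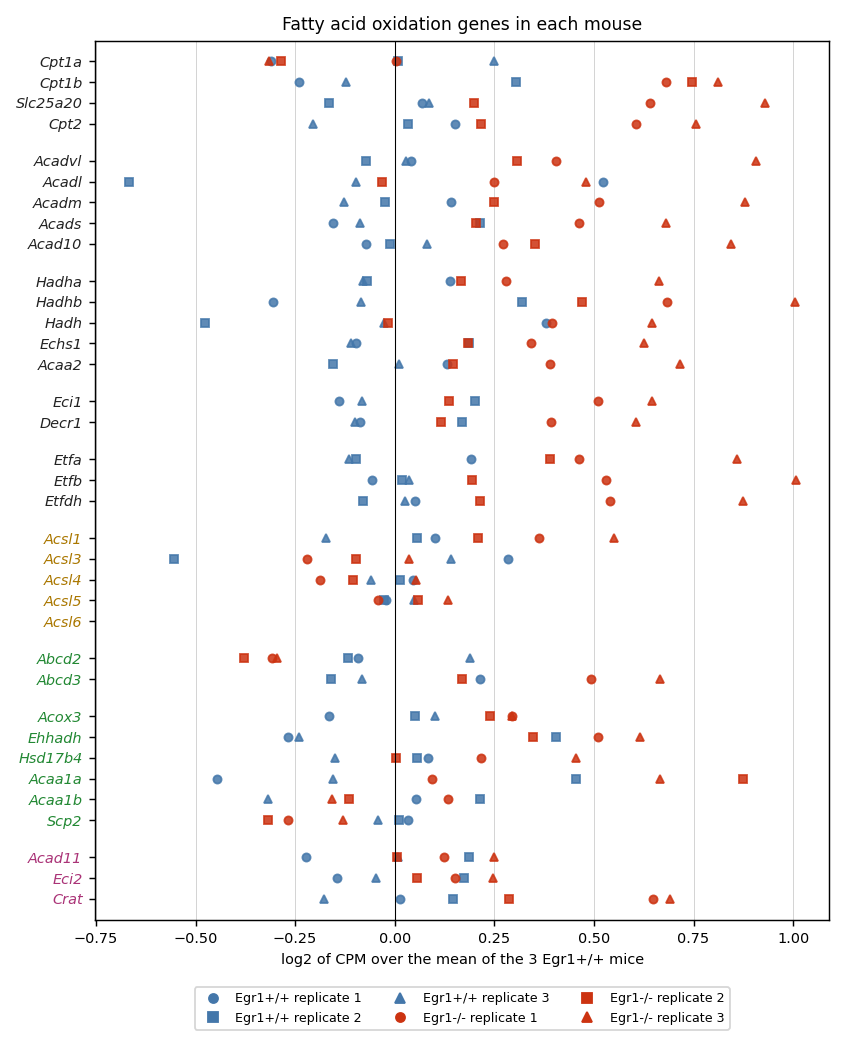
Log2 of CPM in each mouse over the mean of the 3 Egr1+/+ mice (x axis) for each gene (y axis, grouped by step), with Egr1+/+ mice in blue and Egr1-/- mice in red; Acsl6, at 1.29 CPM or less, is listed without points. Egr1-/- replicate 3 is the rightmost red point in 18 of the 19 mitochondrial genes, and replicate 2 the leftmost in 16.

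The mice of a genotype differed from each other along the whole mitochondrial set. Egr1-/- replicate 3 was the highest of its genotype in 18 of the 19 genes and replicate 2 the lowest in 16. Relative to the Egr1+/+ mean, the median log2 ratio over the 19 genes was 0.46, 0.20 and 0.76 in Egr1-/- replicates 1, 2 and 3, and between -0.08 and 0.04 in the Egr1+/+ mice. Replicates 1, 2 and 3 exceeded every Egr1+/+ mouse in 17, 12 and 17 of the 19 genes. The share of all tested genes in which a single Egr1-/- mouse did so was not computed. All 3 did so in 12 of the 19 genes, against 8.15% of all tested genes.

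Summed over the 19 genes, mitochondrial transcripts made up 4225, 3532 and 3664 CPM in Egr1+/+ and 5085, 4322 and 6387 CPM in Egr1-/- mice. The means were 3807 ± 368 and 5264 ± 1044 CPM (SD, n = 3 each), a ratio of 1.38, and the genotypes did not overlap. The 8 peroxisomal genes summed to 908, 886 and 900 CPM in Egr1+/+ and to 867, 799 and 948 CPM in Egr1-/- mice. These overlapped, with means of 898 ± 11.2 and 871 ± 74.7 CPM (SD, n = 3 each) and a ratio of 0.97. The mitochondrial sum was 4.65, 3.99 and 4.07 times the peroxisomal sum in Egr1+/+ and 5.86, 5.41 and 6.74 times in Egr1-/- mice. Scp2 made up a large part of the peroxisomal sum, and without it the multiples were 8.30, 7.16 and 7.03 against 9.37, 8.90 and 10.80. In both forms the lowest Egr1-/- mouse lay above the highest Egr1+/+ mouse. The peroxisomal sum rested largely on Scp2 (means of 390 CPM in Egr1+/+ and 331 CPM in Egr1-/- mice) and Abcd2 (232 and 185 CPM). Both were lower in Egr1-/- mice, whereas 5 of the 8 genes had a positive log2 fold change. Multiples without both Scp2 and Abcd2 were not computed, so the separation is not shown to hold for the other peroxisomal genes. Of those genes only Acaa1b, at -0.04, had a negative log2 fold change. Abcd3 and Hsd17b4, the most abundant of them, had log2 fold changes of 0.46 and 0.24.

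**Figure D3:**
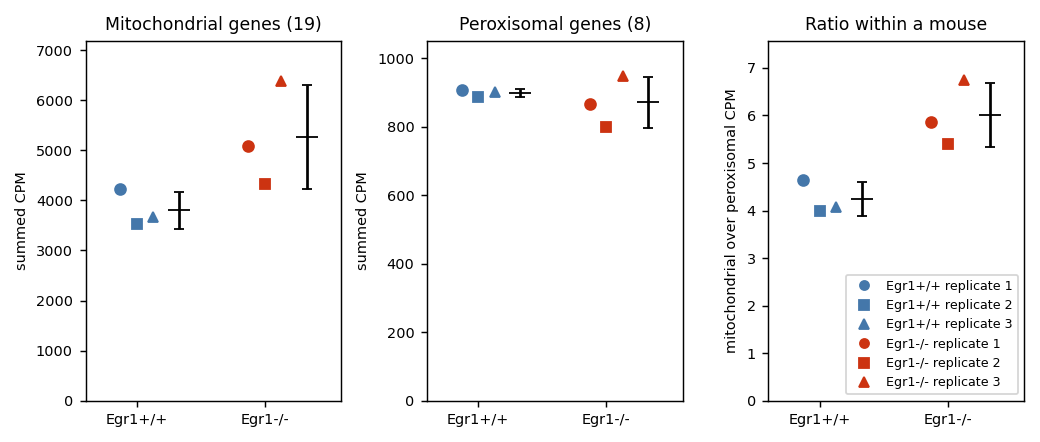
Summed CPM of the 19 mitochondrial genes (left), of the 8 peroxisomal genes (middle) and their ratio within each mouse (right), with each mouse as a point and the mean and SD of 3 mice as a black bar beside it. Mitochondrial sums run from 3532 to 4225 in Egr1+/+ and from 4322 to 6387 in Egr1-/- mice, while the peroxisomal sums of Egr1+/+ mice, 886 to 908, lie within those of Egr1-/- mice, 799 to 948. The peroxisomal sum rests largely on Scp2 and Abcd2, both lower in Egr1-/- mice, whereas 5 of the 8 genes have a positive log2 fold change.

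Markers of other cell types moved with some of these values. Brown and beige adipocyte markers (Ucp1, Cidea, Cox8b, Dio2, Cox7a1 and Elovl3) summed to 636, 516 and 485 CPM in Egr1+/+ and 1243, 871 and 1459 CPM in Egr1-/- mice. The order among the Egr1-/- mice was that of the mitochondrial sum. Among the Egr1+/+ mice it was not, since their mitochondrial sums were 4225, 3532 and 3664 CPM. All 5 beige markers that were tested were higher at an unadjusted p under 0.05, against 5.06% of all tested genes. Elovl3 stayed at or below 0.81 CPM in each mouse. Fibroblast and progenitor markers went the other way, from a mean of 4451 to 2865 CPM, and macrophage markers from 231 to 149 CPM. At an unadjusted p under 0.05, 6 of 6 and 3 of 5 were lower, against 5.6% of all tested genes. The paper had already reported Ucp1, Cidea, Cox8b and Dio2 as upregulated, and Dcn and Col1a1 as downregulated, in these mice. It gave the same directions by RT-qPCR at 2 weeks and in adults. Fatty acid metabolism was among the most enriched annotation terms of its upregulated genes. Endothelial markers had means of 363 and 365 CPM, lymphocyte markers 408 and 456 CPM, and mammary epithelium markers stayed at 1.22 to 10.7 CPM. The part of these cell types in the values of the oxidation genes was not tested. Muscle markers were lowest of the 6 mice in Egr1-/- replicate 1, which exceeded all Egr1+/+ mice in 17 of 19 mitochondrial genes, and highest in Egr1+/+ replicate 2, which had the lowest mitochondrial sum. Of the 19 genes, Egr1+/+ replicate 2 was the highest of its genotype in 6, Cpt1b and Hadhb among them. It was the lowest in 6, Acadl and Hadh among them. Egr1-/- replicate 3 had both the most muscle markers of its genotype, 2686 CPM, and the highest mitochondrial sum, and without it the ratio of mitochondrial sums was 1.24. The part of muscle in these values was not tested.

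The peroxisomal transporters differed in opposite directions. Abcd2 (chr15:91145871-91191799, minus strand), which imports very-long-chain fatty acyl-CoA and is abundant in fat, had 218, 214 and 265 CPM in Egr1+/+ and 188, 179 and 190 CPM in Egr1-/- mice. Every Egr1-/- mouse was below every Egr1+/+ mouse, and the log2 fold change of -0.33 (SE 0.13, adjusted p = 0.403 with edgeR) was the lowest of the 35. It was the only one of the 35 that was lower at an unadjusted p under 0.05, and it missed that threshold when Egr1+/+ replicate 3 or any Egr1-/- mouse was left out. Abcd3 (chr3:121758774-121815302, minus strand), the most abundant transporter of liver peroxisomes, had 134, 104 and 110 CPM in Egr1+/+ and 163, 130 and 184 CPM in Egr1-/- mice. Its log2 fold change was 0.46 (SE 0.16, adjusted p = 0.346 with edgeR), with Egr1-/- replicate 2 just under Egr1+/+ replicate 1. The ratio of Abcd3 to Abcd2, compared after their values had been seen, was 0.617, 0.483 and 0.413 in Egr1+/+ and 0.867, 0.729 and 0.97 in Egr1-/- mice. The log2 difference was 0.77 (exact two-sided permutation test, p = 0.1, adjusted 0.15).

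Inside the peroxisome, 4 of the 6 oxidation genes had a positive log2 fold change. Acox3, an acyl-CoA oxidase for branched chains, was separated by genotype at 23.8, 27.6 and 28.6 CPM against 32.6, 31.4 and 32.7 CPM (log2 fold change 0.28, SE 0.11). Ehhadh, the L-bifunctional enzyme, had a log2 fold change of 0.50 (SE 0.19), and Hsd17b4, the D-bifunctional enzyme, of 0.24 (SE 0.14), both with overlapping genotypes. Scp2 (chr4:108043839-108144998, minus strand) encodes the thiolase for branched-chain substrates and, from a shorter transcript, sterol carrier protein 2, and gene counts add these together. It had 399, 393 and 379 CPM in Egr1+/+ and 324, 313 and 357 CPM in Egr1-/- mice. The genotypes did not overlap, with a log2 fold change of -0.24 (SE 0.12, unadjusted p = 0.0797, edgeR). Of its 51-base stretches 29.5% recur in the pseudogene Scp2-ps2, which had at most 0.0646 CPM in any mouse.

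The straight-chain peroxisomal thiolase is encoded in the mouse by a pair of near-identical genes on chromosome 9, Acaa1a (119339676 to 119350299, plus strand) and Acaa1b (119148023 to 119157093, minus strand). Their transcripts are 96.6% identical over 1428 bases, whereas their promoter windows match at only 55.7% of positions. Both windows (GRCm38.p6, RefSeq, 5′ to 3′) are shown in lower case because the genes share part of their transcript sequence and diverge here: chr9:119341044-119341343 on the plus strand for Acaa1a and chr9:119157044-119157343 on the minus strand for Acaa1b.
Acaa1a: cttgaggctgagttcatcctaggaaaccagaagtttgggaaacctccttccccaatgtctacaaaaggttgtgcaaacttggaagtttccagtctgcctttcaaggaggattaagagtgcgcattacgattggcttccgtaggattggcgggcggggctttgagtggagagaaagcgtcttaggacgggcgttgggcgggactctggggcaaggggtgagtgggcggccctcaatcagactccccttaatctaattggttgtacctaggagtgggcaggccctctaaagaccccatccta
Acaa1b: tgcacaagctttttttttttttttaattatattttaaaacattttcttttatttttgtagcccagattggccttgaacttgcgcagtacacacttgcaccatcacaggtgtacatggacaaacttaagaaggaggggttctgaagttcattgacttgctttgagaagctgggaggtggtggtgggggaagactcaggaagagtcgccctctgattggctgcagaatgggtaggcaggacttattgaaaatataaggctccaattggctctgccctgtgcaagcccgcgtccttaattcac

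Acaa1a had 5.38, 10.1 and 6.59 CPM in Egr1+/+ and 7.83, 13.5 and 11.6 CPM in Egr1-/- mice, the highest log2 fold change of the peroxisomal genes at 0.58 (SE 0.26, adjusted p = 0.48 with edgeR). The genotypes overlapped through Egr1+/+ replicate 2. Acaa1b had 4.83, 5.39 and 3.73 CPM against 5.1, 4.29 and 4.17 CPM, a log2 fold change of -0.04 (SE 0.20). The ratio of Acaa1a to Acaa1b was 1.11, 1.86 and 1.76 in Egr1+/+ and 1.54, 3.14 and 2.79 in Egr1-/- mice, a log2 difference of 0.62 (exact two-sided permutation test, p = 0.3, adjusted 0.3). Counts were 129 to 417 per mouse for these genes, and 30.1% of the 51-base stretches of Acaa1b and 12.7% of those of Acaa1a occur elsewhere, and how such reads were assigned was not tested.

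Of the 5 acyl-CoA synthetases only Acsl1, the main form of adipocytes, was higher at an unadjusted p under 0.05. It had 883, 856 and 730 CPM in Egr1+/+ and 1057, 950 and 1204 CPM in Egr1-/- mice. The genotypes were separated and the log2 fold change was 0.38 (SE 0.15, adjusted p = 0.411 with edgeR). Acsl4, which prefers arachidonic acid, had 35.1, 34.4 and 32.6 CPM against 29.9, 31.6 and 35.3 CPM. Acsl5, of mitochondria and the endoplasmic reticulum, had 34.9, 34.8 and 36.7 CPM against 34.4, 36.9 and 38.9 CPM. Acsl3, of the endoplasmic reticulum and lipid droplets, had 18.8, 10.5 and 17 CPM against 13.3, 14.5 and 15.8 CPM. These 3 overlapped between genotypes, with log2 fold changes of -0.08, 0.05 and -0.09. Acsl6, a form of brain, was close to absent at 7 to 40 counts per mouse, or 0.186 to 1.29 CPM. The summed synthetases, 909 ± 81.5 CPM in Egr1+/+ and 1155 ± 132 CPM in Egr1-/- mice (SD, n = 3 each), were for the most part Acsl1.

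**Figure D4:**
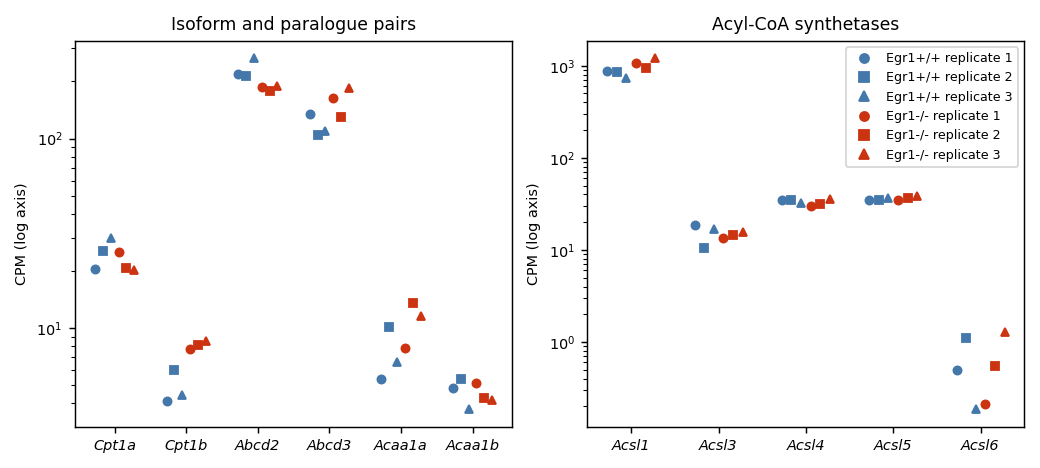
CPM in each mouse (y axis, logarithmic) of the isoform and paralogue pairs (left) and of the 5 acyl-CoA synthetases (right), with Egr1+/+ mice in blue and Egr1-/- mice in red. Cpt1b, Abcd2 and Acsl1 separate by genotype, while Cpt1a, Abcd3, Acaa1a, Acaa1b, Acsl3, Acsl4 and Acsl5 overlap.

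Acad11 and Eci2, assigned to both organelles as was Crat, had log2 fold changes of 0.13 and 0.15 with standard errors of 0.14 and 0.12. Acad11 is an acyl-CoA dehydrogenase for very long chains, and Eci2 an isomerase for unsaturated chains. Moving the 3 genes of both organelles to either side changed the medians little, to 0.49 for the mitochondrial and 0.24 for the peroxisomal genes.

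Per kb of exon, mitochondrial thiolase and dehydrogenases stood at the top of the set. Over the 6 mice, Acaa2 had 293 CPM per kb, Acadl 262, Acadm 171, Acadvl 162 and Etfa 117. Acaa2 ranged from a mean of 249 in Egr1+/+ to 337 CPM per kb in Egr1-/- mice and Acadl from 240 to 285, and the spread of Acadl, 196 CPM (SD) around 481 CPM in Egr1+/+, did not allow their order to be told. Scp2 was the most abundant peroxisomal gene at 104 CPM per kb, followed by Abcd2 at 35.1 and Hsd17b4 at 31.4. At the low end, 3.1 CPM per kb of Cpt1a, 2.56 of Acox3, 2.34 of Acaa1b, 2.08 of Acaa1a and 1.93 of Cpt1b stood close together. Merged exons can be longer than any single transcript. They span 4414 bases for Acaa1a and 1962 for Acaa1b, whose longest coding transcripts have 1762 and 1689 bases. The order of such genes therefore depends on the length used.

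**Figure D5:**
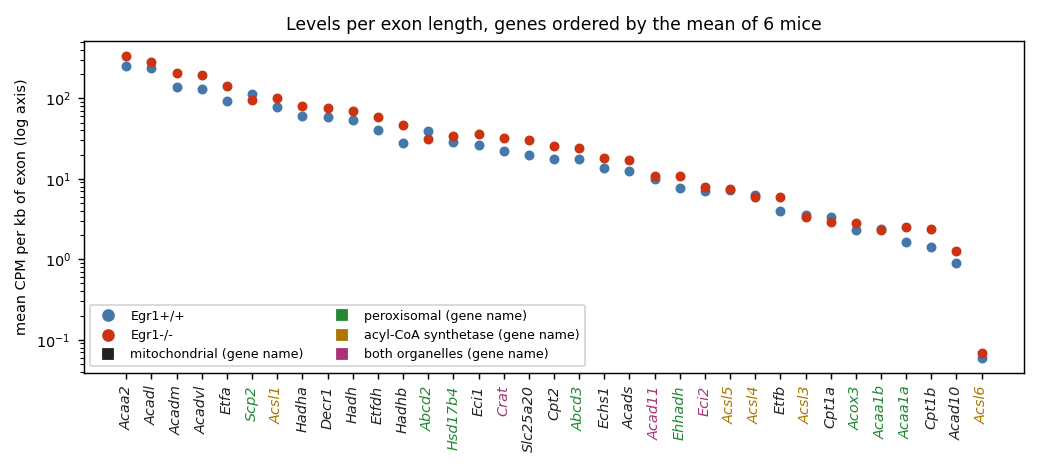
Mean CPM per kb of merged exons (y axis, logarithmic) of the 35 genes in order of their mean over the 6 mice, with a blue point for the 3 Egr1+/+ and a red point for the 3 Egr1-/- mice. Levels run from 293 CPM per kb for Acaa2 to 0.0644 for Acsl6, and Scp2, Abcd2, Acsl4, Acsl3, Cpt1a and Acaa1b have the red point under the blue.

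Genes that control the pathway were looked at from lists of related genes. Among 10 transcriptional regulators of fatty acid oxidation, 5 were higher at an unadjusted p under 0.05, against 5.06% of all tested genes, and 0 were lower, against 5.6%. None of the 10 reached an adjusted p under 0.05 in edgeR, 3 did in DESeq2, and the median log2 fold change was 0.34. Ppargc1a and Ppargc1b, the coactivators PGC-1alpha and PGC-1beta, had the largest values. Ppargc1b had 14.3, 10.6 and 11.7 CPM in Egr1+/+ and 21.9, 20.1 and 27.2 CPM in Egr1-/- mice, which gave a log2 fold change of 0.92 (SE 0.16, adjusted p = 0.155 with edgeR). Ppargc1a had a log2 fold change of 1.08, Ppara, the nuclear receptor that drives oxidation genes, of 0.82, the coactivator Lpin1 of 0.56, and the orphan receptor Esrra of 0.36. All of these were separated by genotype, as were Ppard and Rxrb. In 7 of the 10 regulators (70%) every Egr1-/- mouse was thus above every Egr1+/+ mouse, against 8.15% of all tested genes. The paper had already reported Ppargc1a and Ppara as increased. The other nuclear receptors and the corepressor Nrip1 had smaller values, 0.31 for Ppard, 0.08 for Rxrb, -0.03 for Rxra, -0.06 for Pparg and 0.00 for Nrip1, and the sign of Pparg, Rxra, Rxrb and Nrip1 turned under some alternatives.

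The other lists were counted at the same unadjusted p under 0.05, which 5.06% of all tested genes passed as higher, and 0 of their genes reached an adjusted p under 0.05 in edgeR. Among the 5 genes of malonyl-CoA control, 1 passed as higher. Acacb, the acetyl-CoA carboxylase at the mitochondrial outer membrane that makes the inhibitor of carnitine palmitoyltransferase 1, had 56.5, 92.5 and 49.8 CPM in Egr1+/+ and 117, 106 and 144 CPM in Egr1-/- mice. The genotypes did not overlap, and the log2 fold change was 0.89 (SE 0.23, adjusted p = 0.227 with edgeR). Prkaa2, a catalytic subunit of the kinase AMPK, followed at 0.30. Of the 8 genes for ketone bodies and propionyl-CoA, which take up end products of oxidation, 1 passed, Pcca at a log2 fold change of 0.45, and Mcee had 0.37. Of 11 other peroxisomal lipid enzymes, 2 passed, Gnpat of ether lipid synthesis at 0.31 and Ech1, an isomerase of unsaturated chains, at 0.44. Of 16 genes of peroxisome biogenesis, 1 passed (6.25%), Pex6 at 0.47, with Pex3 at 0.28. All 16 had log2 fold changes of 0 or above, where the median of all tested genes was 0.001. The medians of the 4 lists were 0.12, 0.21, 0.11 and 0.22, and none of their genes was lower at an unadjusted p under 0.05.

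The RefSeq promoter table held 33 windows for 29 of the 35 genes, leaving out Cpt1b, Acaa2, Decr1, Abcd2, Hsd17b4 and Crat. Exact matches were counted on both strands for the element of PPAR and RXR dimers (AGGTCANAGGTCA), that of the estrogen-related receptors (TCAAGGTCA), that of EGR proteins (GCGTGGGCG or GCGGGGGCG) and the hexamer AGGTCA that the first pair contain. The PPAR element was in 0 of the 33 windows, against 0.0396% of the 32851 windows of all promoters. At so low a share a match in 33 windows was unlikely in any case, so the 0 does not show that PPAR sites are absent. The estrogen-related receptor element was in 1 of the 33 (3.03%, Acsl6), against 0.423%, and the EGR element in 1 (3.03%, Hadhb), against 3.47%. The hexamer was in 18.2% of the windows, against 16.3% of all.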

How the data were processed

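Strand-specific libraries were made from total RNA of inguinal fat pads of 6 mice after ribosomal RNA removal. The authors mapped reads with TopHat2 and Bowtie2 to GRCm38 and GENCODE M8, counted them per gene with featureCounts, and deposited raw counts for each mouse. Strand and multimapping settings were not given in the sources used here, and read layout differs between paper (paired-end) and labels (single-end). Of 47069 identifiers, 46488 matched GENCODE M21, without their version. Genes were filtered with filterByExpr and compared, 3 mice against 3, in R 4.3.3 with edgeR 4.0.16 (TMM, quasi-likelihood test, Benjamini-Hochberg over 17667 genes, threshold 0.05). Standard errors (SE) were log2 fold changes divided by the root of F. The alternatives were limma 3.58.1 (voom) and DESeq2 1.42.0, beside other normalizations, filters, a replicate block, genes of the mitochondrial genome left out, and each mouse left out. Tests were tried on simulated data. Depth was 29661984 to 42357981 counts. Replicates are separate mice, and the tests set the genotype difference against the spread between mice. Litters are not given in the labels and were not modelled. Transcripts were compared with blastn 2.17.0 (at least 500 bases and 90% identity). Promoters are from RefSeq. Protein sequences were not used here, and transcript identity took the place of a planned protein comparison. Values per mouse are given for the 12 genes of lowest p, the isoform pairs, the Acsl genes and the peroxisomal extremes, and for others chosen after their values were seen. From the wider lists, the regulators and up to 2 genes of lowest p were named. The genes and lists were chosen with earlier results of these data known.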

Additional observations from a re-analysis of the deposited data

How the results depend on the processing

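The medians and the ratio of mitochondrial sums kept their direction under every alternative run, while the ratio of peroxisomal sums, 0.97, was 0.93 to 1.01 when single mice were left out. DESeq2, with or without independent filtering, put 8 of the 35 oxidation genes past an adjusted p of 0.05 and 2 lower at an unadjusted p under 0.05, against 0 and 1 in edgeR. Without the filter on low counts, edgeR gave 10 and 0. At an unadjusted p under 0.05, 2 genes were higher with total-count scaling, against 21. That scaling gave the peroxisomal genes a median of 0.11 against 0.26, and a ratio of sums of 0.88 against 0.97. It lowered the median of all genes to -0.147. With each mouse left out, 9 to 22 genes were higher and 0 to 1 lower, the mitochondrial median was 0.34 to 0.59 and the peroxisomal 0.19 to 0.32. The causes were not tested.

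Of 846 single-gene values under alternatives, 786 kept direction and side of the threshold, 39 newly passed the adjusted threshold and 21 reversed, and 30 of the 35 oxidation genes had the same sign throughout. With total counts, Acsl5 was at -0.09, Acad11 at -0.01, Rxrb at -0.07 and Nrip1 at -0.14. Nrip1 was at -0.0009 with DESeq2, with or without independent filtering, and with RLE, at -0.004 with upper quartiles and at -0.01 with a minimum of 1 CPM. With each mouse left out, Nrip1 ranged from -0.07 to 0.05, Acsl3 from -0.30 to 0.06, Acsl6 from -0.61 to 1.02, Acaa1b from -0.18 to 0.08, Pparg from -0.19 to 0.003 and Rxra from -0.14 to 0.03.

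The replicate numbers did not pair the mice: deviations from the genotype means correlated at -0.0888, 0.106 and -0.126 for replicates 1, 2 and 3 over 17667 genes. With the replicate block, 0 genes passed the adjusted threshold, 21 were higher and 1 lower at an unadjusted p under 0.05, and the medians were 0.49 and 0.25. Of the genes at an unadjusted p under 0.05, 20 were shared by both fits, while Hadha and Decr1 passed only without the block and Hadh and Acaa1a only with it.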
